A study of Mus musculus with 12 samples.

Results

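The cytosolic ribosomal protein genes were taken by symbol, as every row named Rpl or Rps followed by a number, with at most one closing a, x or l, or by p and a number, together with Rpsa. The rule took 81 of the 17203 rows, 49 for the large subunit of the ribosome and 32 for the small subunit. Of these, 78 are annotated as coding and 3 (Rpl6l, Rpl32l and Rps4l) as pseudogenes. Rps27l and Rpl39l, also among the 78, are paralogs of Rps27 and Rpl39, which leaves 76 of the usual ribosomal proteins, 46 of the large and 30 of the small subunit. Rps3a1 and Fau encode ribosomal proteins under symbols that the rule did not take, and they are given separately.

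The RNA came from primary CD4+ T cells, the helper T lymphocytes, of C57BL/6 mice, in 4 groups of 3 libraries. Unstimulated cells were freshly isolated and not activated. CD3 cells had spent 72 h with plate-bound antibodies to CD3, a component of the T cell receptor complex, and the CD3_CD28 cells for 72 h with plate-bound anti-CD3 and soluble anti-CD28, an antibody to a costimulatory receptor. The CD3_CD28_ICOS cells were activated for 72 h with anti-CD3, anti-CD28 and anti-ICOS, all in soluble form by their labels, so that the format of anti-CD3 and the anti-ICOS antibody cannot be told apart in that group. No label gives the age or sex of the mice, a pooling of animals, or whether replicates came from separate animals. A p-value here therefore reflects only how much libraries of the same group vary, taken over all 4 groups, and this spread can be technical. Transduction is mentioned in the design text of the study and in none of the sample labels.

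A ribosome joins a small subunit, which reads the mRNA, to a large subunit, which forms the peptide bond, and each holds ribosomal RNA and 1 copy of most of its proteins. Ribosomal protein mRNAs carry a run of pyrimidines that begins with a C at the cap, the 5′ terminal oligopyrimidine (TOP) tract, through which mTORC1 signalling controls their translation. Naive T cells are small and make little protein, and activated T cells enlarge and build ribosomes before they divide.

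Levels are in CPM, the reads of a gene per 1000000 reads assigned to genes in a library, and libraries held an estimated 11400000 to 37600000 such reads, judged from the smallest steps between values. The library that stood apart was CD3_CD28 replicate 1, in which 1 row for ribosomal RNA, CT010467.1, held 11.8% of reads against 1.26 to 3.20% in the other 11, which lowers every other CPM value there. CD4 T cell markers (Cd3e, Cd3d, Cd4, Trac, Cd5 and Lck) summed to 4577 to 5068 CPM in the Unstimulated libraries and to 2506 to 4072 CPM in the stimulated ones. The 6 B cell markers summed to 101 to 177 CPM in Unstimulated, 224 to 475 CPM in CD3 and 6.40 to 8.66 CPM in CD3_CD28 libraries, and in CD3_CD28_ICOS libraries to 166 to 478 CPM. The 6 myeloid markers summed to 132 to 316 CPM and the 6 pancreas markers to 287 to 1474 CPM in Unstimulated libraries, against at most 19.4 and 1.63 CPM in the stimulated ones, and the 5 erythroid and platelet markers to 74.7 to 145 against at most 3.41 CPM. Among these markers Blk of the B cells was at most 0.13 CPM in CD3_CD28 libraries, and Cpa1, Amy2a5 and Ctrb1 of the pancreas were at 0 before the authors' offset in all 9 stimulated libraries. The 5 CD8 and NK markers summed to 42.1 to 61.2 CPM in Unstimulated, 27.9 to 39.2 CPM in CD3 and 23.0 to 29.7 CPM in CD3_CD28 libraries, and in CD3_CD28_ICOS libraries to 48.1 to 89.6 CPM.

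Most ribosomal protein reads lay outside the rows of the genes. The mouse genome holds many processed copies of ribosomal protein mRNAs, and 316 rows of the table matched the coding sequence of a coding member (at 85% identity or more over 50% or more of it), most of them processed pseudogenes. The median identity of these copies was 98.6%. Gene and copy rows together, called families here, held 8.71 to 9.79% of the assigned reads in Unstimulated libraries, and the coding gene rows alone held 22.6 to 23.8% of their families' reads in all 12 libraries, so the split hardly differed between groups in the sum.

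Single genes split very differently. Rpl5, which with Rpl11 carries the 5S RNA into the large subunit, had 24.4 CPM in its own row on average and 3742 CPM in its family, of which 3716 CPM stood in the row of Gm15500, a single copy with 100% identity. Rpl12, a protein at the base of the ribosomal stalk, had 39.8 CPM in its row and 3374 CPM in its family, with 3327 CPM in Gm10275. Of the 76 usual proteins, 43 had under 10% of their family's reads in the gene row, 14 under 1%, and 17 over 50%. Rpl8, Rps3 and Rpl41 had no copy row, so their rows are the most direct readings of a gene. The gene row means ranged from 0.233 CPM for Rps29 to 2530 CPM for Rpl4, with a median of 84.8 CPM, and the family means from 6.21 CPM for Rplp2 to 3742 CPM for Rpl5, with a median of 1089 CPM.

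**Figure D1:**
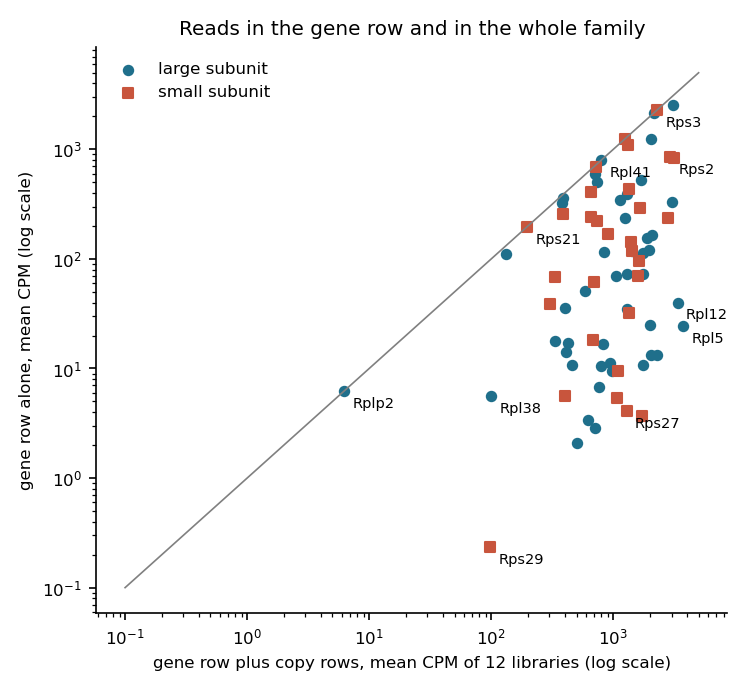
Mean CPM over the 12 libraries of the gene row alone (vertical, log scale) against the gene row plus its copy rows (horizontal, log scale) for the 76 usual ribosomal proteins, with the line of equal values. Points on the line, such as Rps3 and Rpl41, have no reads in copies, and points far under it, such as Rps29 at 0.233 CPM in the row and 97.8 CPM in the family, have nearly all of them there.

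Between genes, levels were compared on the families, per kb of the longest coding sequence annotated for the gene. Their median was 2085 CPM per kb. On this basis the highest were Rpl12 (6817), Rpl41 (5737, at 138 bases) and Rps27 (5097). The lowest were Rps29 (582) and Rpl38 (476), with Rplp2 far under these. Where a gene's usual coding sequence is shorter than the longest annotated one, its value is understated. For a gene as short as Rpl41, the smallest ribosomal protein, a few bases matter, so the order at the top is not firm. Rplp2, an acidic stalk protein, is understated, since a copy of its coding sequence with 99.4% identity lies inside the row of Wdr89, which averaged 266 CPM and was not joined to it. How the authors assigned reads that match a gene and its copies equally is not given in the sources used here, so tests are shown both on the 81 gene rows and on the 78 families of coding members, the latter added after the rows had been seen. A gene was tested if 3 or more libraries reached 10 CPM, which left out 14 gene rows: Rpl24, Rpl27, Rpl36a, Rpl37, Rpl38, Rplp2, Rps7, Rps13, Rps27, Rps28, Rps29, Rpl39l, Rpl32l and Rps4l. Among families only those of Rpl39l and Rplp2 were left out, since the other coding members passed with their copies. Fold changes are log2 differences of log2(CPM + 1), tests are limma with p-values adjusted by the Benjamini-Hochberg method over all genes tested, ± is a standard error, and a gene is called at an adjusted p under 0.05.

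Summed over all families, ribosomal protein mRNA took the largest part of the reads in CD3_CD28 on average, at 10.8% against 9.42% in Unstimulated. In this total CD3_CD28 replicate 1 (9.78%) lay under Unstimulated replicate 2 (9.79%). The large subunit families held 5.20, 5.84 and 5.87% of reads in the 3 Unstimulated libraries, 5.71, 5.32 and 5.15% in CD3, 6.15, 7.13 and 6.99% in CD3_CD28 and 5.27, 5.74 and 5.42% in CD3_CD28_ICOS. All 3 CD3_CD28 libraries lay above the other 9, and the other 3 groups overlapped. The small subunit families held 3.51, 3.95 and 3.89% in Unstimulated, 3.49, 3.24 and 3.15% in CD3, 3.63, 4.28 and 4.19% in CD3_CD28 and 3.20, 3.49 and 3.27% in CD3_CD28_ICOS. Unstimulated and CD3_CD28 overlapped in this sum, and the CD3 and CD3_CD28_ICOS libraries lay under the lowest of both. Without the reads of the ribosomal RNA row, all families together held 9.62 ± 0.694% (SD, n = 3) in Unstimulated, 8.81 ± 0.458% in CD3, 11.4 ± 0.268% in CD3_CD28 and 8.94 ± 0.413% in CD3_CD28_ICOS. In bulk RNA, fewer cells of a type and less RNA per cell cannot be told apart. The sums were given no test.

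The balance of the subunits in summed reads differed between fresh and stimulated cells. Families with many reads weigh most in these sums. The Rps27 and Rps24 families averaged 2202 and 2356 CPM in Unstimulated and 868 and 1236 in CD3. Of the 31 small subunit families, 15 fell and 5 rose in CD3, so the share does not describe every member. The small subunit made up 40.3, 40.4 and 39.9% of the ribosomal protein reads in Unstimulated libraries. It made up 37.9, 37.8 and 37.9% in CD3, 37.1, 37.5 and 37.5% in CD3_CD28 and 37.7, 37.8 and 37.6% in CD3_CD28_ICOS. The 9 stimulated libraries thus lay between 37.1 and 37.9%, with no overlap with the fresh cells, and since both parts come from the same library this ratio is the same under any scaling by 1 factor per library, which quantile normalization is not.

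**Figure D2:**
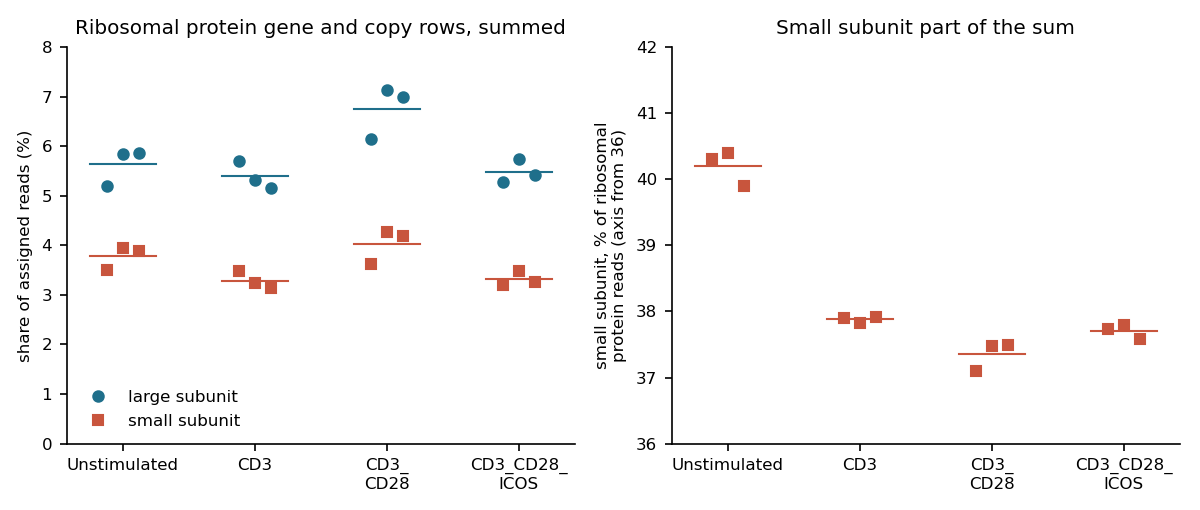
Left, share of all assigned reads (%) in families of the large subunit (circles) and the small subunit (squares), 1 point per library and lines at the group means. Right, the small subunit as % of all ribosomal protein reads, on an axis that does not start at 0: the Unstimulated libraries sit at 39.9 to 40.4% and the stimulated ones at 37.1 to 37.9%.

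Fresh cells were first compared with cells after 72 h of anti-CD3. Ribosomal protein families changed in both directions: 16 of the 76 tested rose and 29 fell, where 43.9% of all 9680 rows and families tested rose and 26.2% fell. Rises included Rps2, Rpl41, Rpl28, Rpl24 and Rpl3, and falls Rps27, Rps24, Rps21 and Rps29. In the large subunit 11 of 45 rose and 14 fell, with a median log2 change of -0.01, and in the small subunit 5 of 31 rose and 15 fell, with a median of -0.23, against 0.18 over all genes tested. On the gene rows, 17 of 67 rose and 17 fell (43.6% and 26.3% of all 9826 rows), and without Unstimulated replicate 1 the rises were 11. Across 5 ways of scaling the libraries the small subunit median lay between -0.38 and -0.19, while that of the large subunit lay between -0.17 and 0.11 and so changed sign. The family counts moved too, to 27 rises and 26 falls under quantile normalization and to 8 and 44 under the median of ratios. Over all rows and families tested, 3274 of 9680 rose and 3640 fell under quantile normalization. Under the median of ratios 3589 of 9660 rose and 3325 fell. The family median was -0.03 against -0.04 over all genes tested under quantile normalization, and -0.27 against 0.03 under the median of ratios.

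The members that fell most belong to the small subunit. The Rps27 family, whose protein is a zinc finger protein of the small subunit, had 2011, 2438 and 2157 CPM in Unstimulated libraries, 944, 835 and 825 in CD3, 962, 1169.6 and 1158 in CD3_CD28 and 907, 1002 and 1007 in CD3_CD28_ICOS. Every stimulated library lay under every fresh one, and the change from fresh to CD3 was -1.34 ± 0.10 (adjusted p = 3.8e-08, limma). Only 0.316% of that family's reads were in the row of Rps27 itself.

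The paralog Rps27l, a target of p53 in human and mouse cells, went the other way. Its row has no copies and read 13.0, 15.3 and 11.4 CPM in Unstimulated, 41.0, 42.1 and 44.4 in CD3, 39.6, 34.5 and 52.2 in CD3_CD28 and 35.0, 28.0 and 27.0 in CD3_CD28_ICOS. The rise in CD3 was 1.62 ± 0.15, or 3.08-fold (adjusted p = 4.3e-07, limma), the largest among the 76 families, with no overlap of the groups.

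Rps24, which is mutated in Diamond-Blackfan anaemia in humans, had 2128, 2534 and 2407 CPM in Unstimulated, 1299, 1251 and 1159 in CD3, 1423, 1830.0 and 1720.3 in CD3_CD28 and 1349, 1389 and 1400.1 in CD3_CD28_ICOS as a family. Its groups of fresh and stimulated cells did not overlap, the change in CD3 was -0.93 ± 0.10 for the family (adjusted p = 1.2e-06, limma), and the gene row alone gave -0.89 ± 0.09. Rps21, nearly all of whose reads (99.4%) were in its own row, had 269.9, 299.6 and 284 CPM in Unstimulated, 159, 153 and 145 in CD3, 168, 184 and 193 in CD3_CD28 and 162, 170.2 and 172 in CD3_CD28_ICOS. The Rps21 change of -0.90 ± 0.08 in CD3 (adjusted p = 2.4e-07, limma) therefore hardly rests on copies. The Rps29 family, of another zinc finger protein, had 145, 137 and 165 CPM in Unstimulated, 89.4, 90.7 and 73.8 in CD3, 65.5, 80.1 and 69.6 in CD3_CD28 and 83.1, 90.9 and 83.0 in CD3_CD28_ICOS, and fell by 0.81 in CD3 (adjusted p = 1.3e-05, limma).

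Further falls in CD3 were those of Rps14 (-0.71), Rps16 (-0.63) and Rps19 (-0.63), the last another Diamond-Blackfan gene in humans. In the large subunit the Rpl12 family fell by 0.65, Rpl35a by 0.60, Rplp1, an acidic stalk protein, by 0.47, and Rpl13a, which is also known from the GAIT complex of human myeloid cells, by 0.44. Rpl8, a protein near the peptidyl transferase centre, has no copy row and had 2398, 2679 and 2605 CPM in Unstimulated and 2112, 1959 and 1975 in CD3. Its groups did not overlap, and it fell by 0.34 (adjusted p = 7.7e-04, limma). Rps3, a protein at the mRNA entry that also has no copy row, had 2214, 2613 and 2492 CPM in Unstimulated and 2182, 1957 and 1926 in CD3, with a fall of 0.27 (adjusted p = 0.01, limma) that was not called without Unstimulated replicate 2 or under quantile normalization. The Rpl12 fall was not called under quantile normalization, and the Rpl5 family, which fell by 0.24, rose by 0.41 under it. The Rpl5 call in CD3 was also lost without Unstimulated replicate 2 or 3 or CD3 replicate 2 or 3.

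After Rps27l, the largest rise in CD3 was that of Rps2, a protein of the mRNA entry site. Its family, with 23 copy rows, as many as that of Rpl21 and more than any other member, had 1793, 1899 and 1975 CPM in Unstimulated, 3036, 2935 and 2875 in CD3, 3813, 4444 and 4102 in CD3_CD28 and 2495, 3136 and 2466 in CD3_CD28_ICOS. Stimulated libraries lay above all fresh ones, and the rise in CD3 was 0.64 ± 0.09 for the family (adjusted p = 3.2e-05, limma) and 0.65 ± 0.10 for the gene row, which held 29.2% of the reads. Rpl41, with no copy row, had 524, 611 and 578 CPM in Unstimulated, 823, 878 and 751 in CD3, 834, 1113 and 999 in CD3_CD28 and 765, 849.7 and 776 in CD3_CD28_ICOS, a rise of 0.52 ± 0.11 in CD3 (adjusted p = 5.7e-04, limma). The Rpl3 family, whose protein lies close to the peptidyl transferase centre, had 2102, 2273 and 2381 CPM in Unstimulated, 3212, 2906 and 2946 in CD3, 3494, 3973 and 3909 in CD3_CD28 and 2871, 3275 and 2978 in CD3_CD28_ICOS. For Rpl3 the rise in CD3 was 0.42 ± 0.08 (adjusted p = 3.4e-04, limma), without overlap.

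Other families that rose in CD3 were those of Rpl28 (0.52), Rpl24 (0.48), Rps26 (0.46), Rpl7a (0.38), Rpsa (0.34), Rps12 (0.34), Rpl22 (0.32), Rpl4 (0.31), Rpl29 (0.29) and Rpl10a (0.27). Rpl22 is needed for the development of mouse alpha-beta T cells, and Rpsa is also known as the laminin receptor. With libraries scaled by the median of ratios, which lowers the CD3 against Unstimulated changes of all genes by 0.15 at the median, the rises of Rpl4, Rpl10a, Rpl22, Rpl29, Rps12 and Rpsa were no longer called. That of Rpl10a was also lost without Unstimulated replicate 1 or CD3 replicate 1. The families of Rplp0 (-0.08), Rps6 (-0.05), the substrate of the S6 kinases, Rpl11 (0.09), Rpl10 (0.16), Rpl13 (-0.04), Rpl38 (-0.26), Rpl39 (-0.19), Rps4x (-0.15) and Rps27a (0.15), a fusion to ubiquitin, did not pass the test.

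**Figure D3:**
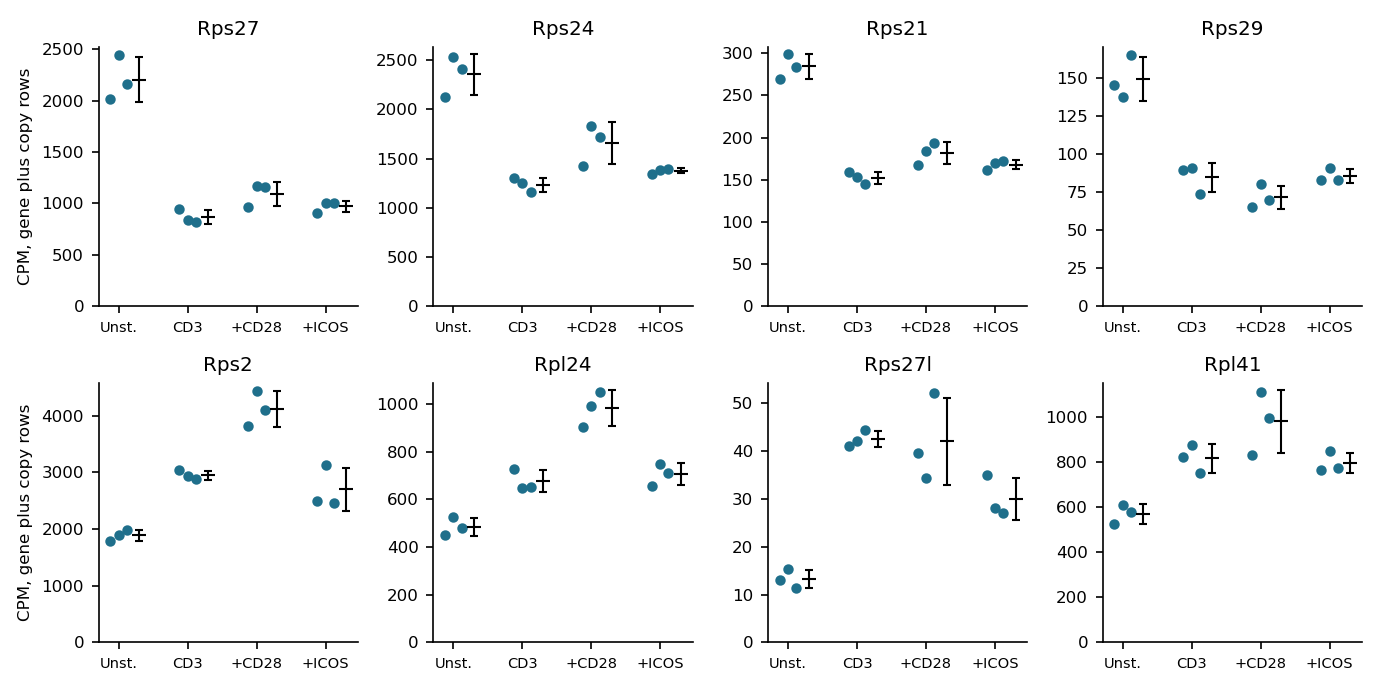
CPM of the gene row plus its copy rows in each library (points) with the mean and SD of the 3 libraries (dash and bar), for 8 members; +CD28 stands for CD3_CD28 and +ICOS for CD3_CD28_ICOS. Rps27, Rps24, Rps21 and Rps29 were lower in every stimulated library, and Rps2, Rpl24, Rps27l and Rpl41 were higher.

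With anti-CD28 added, the family medians against fresh cells lay higher than in CD3 (-0.01 large, -0.23 small) in both subunits. In CD3_CD28 against Unstimulated, 35 of 76 families rose and 15 fell (36.0% and 39.5% of all rows and families tested). The large subunit had 25 rises and 5 falls among 45, with a median of 0.27, and the small subunit 10 rises and 10 falls among 31, with a median of -0.11, against -0.04 over all genes tested. On the gene rows 32 of 67 rose and 12 fell (36.1% and 39.1% of all rows), the falls being 6 without Unstimulated replicate 3 and 7 without CD3_CD28 replicate 1. Across 5 scalings the large subunit median lay between 0.27 and 0.37 and the small subunit median between -0.11 and 0.00.

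The largest rises in CD3_CD28 over fresh cells were 1.59 ± 0.15 for Rps27l, 1.12 ± 0.09 for the Rps2 family and 1.01 ± 0.09 for the Rpl24 family. Rpl24, a protein at the contact of the subunits, had 450.0, 525 and 482 CPM in Unstimulated, 729, 647 and 653 in CD3, 902, 992 and 1052 in CD3_CD28 and 656, 747 and 712 in CD3_CD28_ICOS, so that each CD3_CD28 library exceeded all others (adjusted p = 1.5e-07, limma). Its gene row was under the minimum, at 0.995 to 4.66 CPM. The Rpl7a family rose by 0.82, Rpl41 by 0.77, Rpl3 by 0.75, Rpl10a by 0.72 and Rpl22 by 0.71. Large falls were those of the families of Rps29 (-1.05 ± 0.11), Rps27 (-1.01 ± 0.10) and Rps21 (-0.64 ± 0.08), with adjusted p of 8.3e-07, 5.0e-07 and 5.2e-06 by limma. The Rps24 family fell by 0.51, and those of Rps14, Rps19, Rpl12 and Rps3 were not called.

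In the row of Rpl12 the same comparison gave another answer than in its family. The row had 25.1, 27.8 and 25.3 CPM in Unstimulated, 27.8, 29.2 and 34.6 in CD3, 74.9, 77.0 and 80.1 in CD3_CD28 and 23.7, 25.3 and 26.9 in CD3_CD28_ICOS, and its change in CD3_CD28 against Unstimulated was 1.53 ± 0.10 (adjusted p = 8.9e-09, limma). The family, 98.8% of whose reads lay in copies, had 3922, 4625 and 4284 CPM in Unstimulated, 2932, 2674 and 2589 in CD3, 3323, 3999 and 3883 in CD3_CD28 and 2586, 2898 and 2776 in CD3_CD28_ICOS, a difference of -0.20 ± 0.09 that was not called (adjusted p = 0.061, limma). Of the 66 genes tested both ways in this comparison, 37 were called in the same direction, 0 in opposite directions, and only Rpl12 and Rpl5 differed by more than 0.5. The Rpl5 row, at 13.1 to 41.8 CPM over the 12 libraries, gave -0.45 ± 0.31 and its family 0.10 ± 0.09, neither called.

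**Figure D4:**
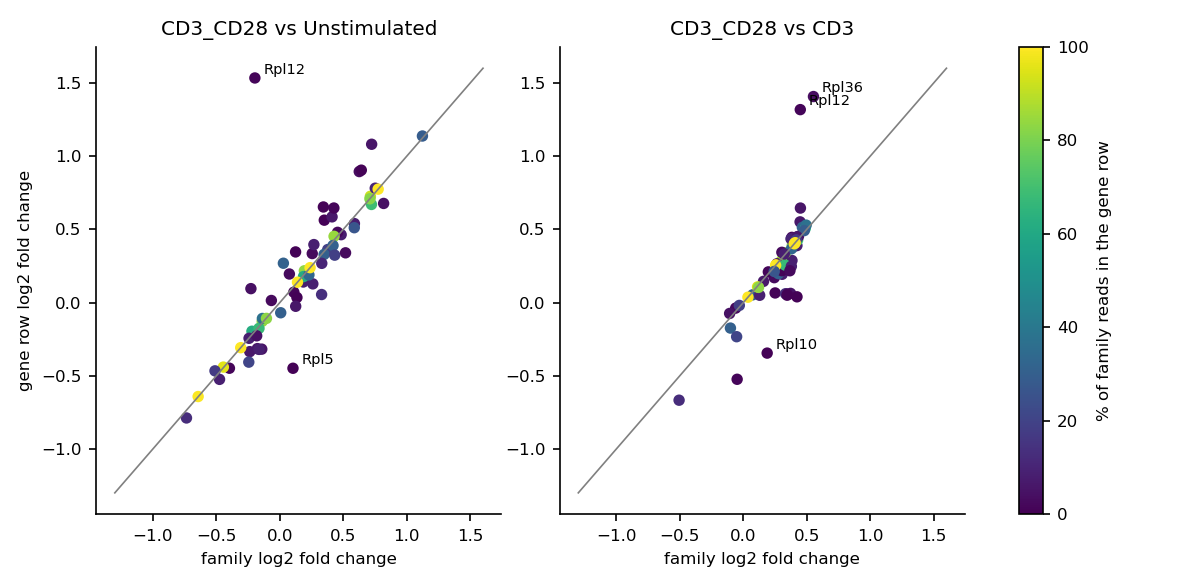
Log2 fold change of the gene row (vertical) against that of the family (horizontal) in CD3_CD28 against Unstimulated (left) and against CD3 (right), with the line of equal values and colour for the % of family reads in the gene row. Genes that differ by more than 0.5 are named: Rpl12 lies at 1.53 in the row and -0.20 in the family on the left.

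Against fresh cells, CD3_CD28_ICOS libraries gave 16 rises and 28 falls among the 76 families (35.9% and 23.8% of all rows and families tested). In the large subunit 11 of 45 rose and 12 fell, and in the small subunit 5 of 31 rose and 16 fell, with medians of 0.04 and -0.25 against 0.08 over all genes tested. On the gene rows 13 of 67 rose and 15 fell (35.6% and 23.7% of all rows). The falls were led by the families of Rps27 (-1.18 ± 0.10), Rps29 (-0.79 ± 0.11), Rps24 (-0.77 ± 0.10) and Rps21 (-0.76 ± 0.08), and the rises by those of Rps27l (1.13 ± 0.15), Rpl24 (0.54 ± 0.09), Rpl29 (0.52 ± 0.08) and Rps2 (0.51 ± 0.09). Across 5 scalings the small subunit median lay between -0.36 and -0.17, and that of the large subunit between -0.06 and 0.10. Under quantile normalization 23 families rose and 27 fell (2919 and 3367 of all 9680 rows and families). The family median was then -0.04, against -0.06 over all genes tested. The 3 comparisons with fresh cells share the Unstimulated libraries, which also held the myeloid, erythroid and pancreas markers given above. The part of these markers in the changes was not tested.

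The comparison of CD3_CD28 with CD3 asks what anti-CD28 adds to plate-bound anti-CD3, and here the ribosomal protein genes moved almost as a block. Of 76 families 57 rose and 1 fell, while over all rows and families tested 18.1% rose and 46.3% fell. The large subunit had 37 rises among 45 and a median of 0.33, and the small subunit 20 rises and 1 fall among 31 and a median of 0.30, against -0.25 over all genes tested. The called rises were modest and close to each other, from 0.19 for Rpl10 to 0.55 for Rpl36. On the gene rows 37 of 67 rose and 2, Rpl31 among them, fell (18.7% and 45.7% of all rows).

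Scaling set how large the shift was. Across 5 scalings the family median ranged from 0.18 to 0.58, and its distance from the median of all genes tested from 0.23 to 0.58, the lower ends under quantile normalization. With the median of ratios, which raised the median of all genes by 0.25, 68 of 76 families rose and 0 fell. Over all 9660 rows and families tested under it, 3049 rose and 2782 fell. Under quantile normalization 41 rose and 6 fell (2722 and 3153 of all 9680 rows and families). The differences of the families of Rpl3, Rpl5, Rpl10, Rpl12, Rps6 and Rpsa then changed sign (to -0.17, -0.09, -0.03, -0.07, -0.02 and -0.38). Leaving out each library in turn gave 45 to 61 rises. Without CD3_CD28 replicate 1 and Unstimulated replicate 3 together there were 61 rises and 1 fall. B cell markers summed to at most 8.66 CPM in CD3_CD28 and to 224 CPM or more in CD3, and their part in the shift was not tested.

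The members with the largest values in this comparison came from both subunits. The Rpl36 family had 392, 361 and 349 CPM in CD3 and 493, 554 and 572 in CD3_CD28, a change of 0.55 ± 0.10 (adjusted p = 2.7e-04, limma) without overlap, while its gene row gave 1.41. Rpl24 changed by 0.54 ± 0.09, Rps19 by 0.49 ± 0.09 and Rps14 by 0.49 ± 0.11, with adjusted p of 1.6e-04, 4.9e-04 and 0.0012 by limma. Rps3 had 2481, 2754 and 2814 CPM in CD3_CD28, above all 3 CD3 libraries, and rose by 0.41. The Rps2 family rose by 0.48, Rpl13a by 0.46, Rpl10a by 0.45, Rpl4 by 0.40 and Rpl38, known for its role in the translation of Hox mRNAs in the mouse, by 0.46. Rpl22 had 290.5, 300.1 and 307 CPM in Unstimulated, 405, 359.5 and 355 in CD3, 461, 521 and 493 in CD3_CD28 and 374, 412 and 409.7 in CD3_CD28_ICOS, a rise of 0.40 over CD3. The Rpl41 rise of 0.26 came from overlapping groups and was lost in 7 of the 12 fits that left out 1 library.

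In CD3_CD28_ICOS against CD3_CD28 these genes were mostly lower. The comparison shares the CD3_CD28 libraries with the one before it, so the opposite signs are not independent. Of 76 families 46 fell and 1 rose, while 24.2% of all rows and families tested fell and 39.1% rose. The large subunit had 29 falls among 45 with a median of -0.28, and the small subunit 17 falls and 1 rise among 31 with a median of -0.25, against 0.13 over all genes tested. On the gene rows 29 of 67 fell and 1 rose (24.5% and 38.5% of all rows). Across 5 scalings the family median ranged from -0.49 to -0.19. Under the median of ratios, which lowered the median of all genes by 0.20, 66 families fell and 0 rose. Over all 9660 rows and families tested under it, 3519 fell and 2764 rose. Under quantile normalization 47 families fell and 3 rose (3006 and 3241 of all 9680 rows and families), those of Rpl3, Rpl5, Rps6 and Rpsa having the opposite sign.

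The largest falls were those of the families of Rps2 (-0.62 ± 0.09), Rpl36 (-0.54 ± 0.10), Rpl14 (-0.51 ± 0.08) and Rpl24 (-0.48 ± 0.09), with adjusted p of 6.8e-05, 2.7e-04, 8.2e-05 and 3.5e-04 by limma. The Rpl14 family had 1447, 1608 and 1559.9 CPM in CD3_CD28 and 1031, 1172 and 1032 in CD3_CD28_ICOS, without overlap. The Rps27 (-0.17), Rps21 (-0.11), Rps29 (0.26), Rps26 (0.01), Rpl8 (-0.09) and Rplp0 (-0.18) families were not called. The row of Rpl12 fell by 1.58 and its family by 0.44, both called. B cell markers were above 165 CPM in every CD3_CD28_ICOS library, and their part was not tested.

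CD3_CD28_ICOS and CD3 libraries differed little in these genes. Of 76 families 2, Rpl29 and Rps15a, were higher in CD3_CD28_ICOS and 1, Rps27l, was lower, where 19.2% of all rows and families tested were higher and 29.2% lower. The family medians were 0.04 for the large and 0.02 for the small subunit, against -0.07 over all genes tested. On the gene rows 2 were higher and 2 lower (18.9% and 28.7% of all rows), Rpl12 being the other lower one. The Rps15a family had 589, 543 and 509 CPM in CD3 and 700.5, 718 and 749 in CD3_CD28_ICOS, a difference of 0.40 ± 0.09 (adjusted p = 0.0024, limma) without overlap. The Rps27l difference was -0.50 ± 0.15 (adjusted p = 0.016, limma) and was lost without CD3 replicate 3 or CD3_CD28_ICOS replicate 3. That of Rpl29, 0.23 ± 0.08 (adjusted p = 0.03, limma), was lost without CD3 replicate 2 or 3 or CD3_CD28_ICOS replicate 2 or 3. A p above the threshold does not show that the 2 groups are alike.

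**Figure D5:**
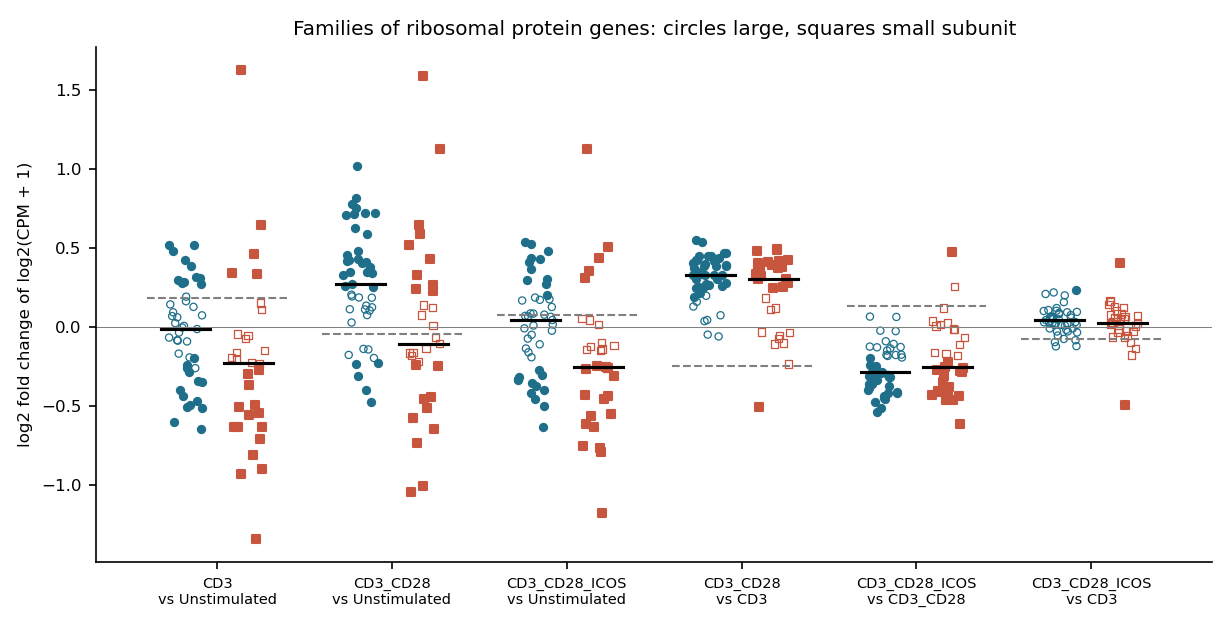
Log2 fold changes of the tested families (vertical) in the 6 comparisons, large subunit as circles and small subunit as squares, filled where the adjusted p is under 0.05. Black lines are medians of the families and dashed grey lines the median of all genes tested: in CD3_CD28 against CD3 the families lie around 0.33 while the median gene lies at -0.25.

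Over the 3 stimulated groups an F test called 57 of 76 families (81.6% of all rows and families tested) and 40 of 67 gene rows (81.2% of all rows). Rpl8 and Rps26 were among the steadiest tested gene rows over the 9 stimulated libraries, with coefficients of variation of 4.92 and 6.75%. Rps26, whose protein lies at the mRNA exit, had 188, 184 and 161 CPM in CD3, 174, 171 and 180.0 in CD3_CD28 and 205, 184 and 178 in CD3_CD28_ICOS in its row.

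Ribosomal protein genes outside the symbol rule varied in the same comparisons. Families were also formed for these. Rpl22l1, the paralog of Rpl22, had 78.3, 90.5 and 87.1 CPM in Unstimulated, 96.3, 97.6 and 91.4 in CD3, 161, 181 and 171 in CD3_CD28 and 84.2, 104 and 83.3 in CD3_CD28_ICOS. The CD3_CD28 libraries were all above the other 9, and Rpl22l1 rose by 0.84 ± 0.10 over CD3 (adjusted p = 9.7e-06, limma) and differed by -0.92 ± 0.10 in CD3_CD28_ICOS against CD3_CD28. Fau, a ubiquitin-like fusion, rose by 0.57 and Rack1, a scaffold of the small subunit, by 0.29 in CD3_CD28 over CD3. The Rps3a1 family had 2163, 2371 and 2467 CPM in Unstimulated, 1886, 1824 and 1765 in CD3, 1566, 1711 and 1734 in CD3_CD28 and 1813, 1783 and 1741 in CD3_CD28_ICOS. It fell by 0.48 in CD3_CD28 against Unstimulated, and its difference from CD3 of -0.13 was not called. Rpl36al gave 0.17 (not called) and Rpl7l1 fell by 0.36. Among the low paralogs, the Rpl39l row had 0.175 to 1.48 CPM and the Rps4l row 0.484 to 2.66 CPM over the 12 libraries, too low to test.

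At the annotated starts, 58 of the 78 coding members could be matched by symbol to a RefSeq promoter table (GRCm38.p6). A C at the start base followed by at least 4 C or T, read on the gene's strand, was found at a listed start of 13 of these 58 genes (22.4%), 7 of 35 of the large and 6 of 23 of the small subunit, and of 3.01% of all 27025 genes in the table. A run of at least 7 C or T that begins with a C within 10 bases of either side of the start was found for 25 of 58 (43.1%) against 10.5% of all genes. An annotated start can lie some bases from the base at which the cap forms, and no match says only that these letters are not in this window. Windows of 30 bases, 10 before the start base and 20 from it, are shown for 6 members that fell (Rps27, Rps21, Rps24) or rose (Rps2, Rpl7a, Rps27l). Rps27l, Rps24 and Rps21 have 2 listed starts each, of which the one with the longest run was chosen to be shown. Capitals mark the longest run of C and T that begins with a C in the 10 bases of each side:
Rps2, chr17:24720053-24720082, plus strand: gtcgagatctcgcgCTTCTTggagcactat
Rpl7a, chr2:26910797-26910826, plus strand: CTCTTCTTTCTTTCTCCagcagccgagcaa
Rps27l, chr9:66946076-66946105, plus strand: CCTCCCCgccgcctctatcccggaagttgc
Rps24, chr14:24490668-24490697, plus strand: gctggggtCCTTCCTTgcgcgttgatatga
Rps21, chr2:180257369-180257398, plus strand: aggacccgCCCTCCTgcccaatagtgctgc
Rps27, chr3:90213629-90213658, minus strand: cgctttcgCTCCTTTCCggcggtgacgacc
The capitals span 6 bases in Rps2, too short for the run of 7 counted above, and 7 to 17 bases in the other 5 genes shown, which include members that fell and members that rose. For Rps27l, Rps24 and Rps21 the choice of start favoured a long run, and in Rps27l the run lies wholly before the start base.

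Coding length went along with the change from fresh cells in the small subunit. Across the 30 usual small subunit families, Spearman's correlation of coding length with the log2 change was 0.58 in CD3_CD28 against Unstimulated, and across the 45 large subunit families tested it was 0.19. In CD3 against Unstimulated these values were 0.42 and 0.18, and in CD3_CD28_ICOS against CD3_CD28, -0.57 and -0.29. Over the other coding genes of up to 1257 bases the correlation was 0.03 in CD3_CD28 against Unstimulated (n = 3821). These are descriptions across genes of the same libraries, which are not independent replicates. The median coding length, by the longest annotated coding sequence, was 476 bases in the large and 453 bases in the small subunit.

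Genes of ribosome assembly mostly fell where ribosomal protein genes rose in CD3_CD28 against CD3. In CD3_CD28_ICOS against CD3_CD28 both had more falls than rises. Of 29 tested genes of ribosome assembly and ribosomal RNA synthesis, 12 rose and 0 fell in CD3 against Unstimulated, 1 rose and 17 fell in CD3_CD28 against CD3, and 2 rose and 14 fell in CD3_CD28_ICOS against CD3_CD28 (43.6% and 26.3%, 18.7% and 45.7%, and 38.5% and 24.5% of all rows). Ncl, nucleolin, had 912, 885 and 976 CPM in Unstimulated, 2131, 2137 and 2028 in CD3, 2082, 2301 and 2328 in CD3_CD28 and 1648, 1582 and 1506 in CD3_CD28_ICOS, and rose by 1.18 in CD3. Bop1, a factor of large subunit assembly, fell by 1.22 in CD3_CD28 against CD3. The share of assembly genes that rose in CD3 against Unstimulated was near that of all rows. In CD3_CD28 against Unstimulated 2 rose and 10 fell (36.1% and 39.1% of all rows). In CD3_CD28_ICOS against Unstimulated 1 rose and 16 fell (35.6% and 23.7%). In CD3_CD28_ICOS against CD3, where 3 ribosomal protein families were called, 27 of the 29 assembly genes were lower and 0 higher (28.7% and 18.9% of all rows), with a median of -0.95 and -1.60 for Gnl3, nucleostemin. This difference in count between the lists was not tested.

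Of 16 genes of elongation factors and other mRNAs with TOP tracts, 12 rose in CD3, 14 in CD3_CD28 and 11 in CD3_CD28_ICOS against Unstimulated (43.6%, 36.1% and 35.6% of all rows), and 1, 1 and 2 fell (26.3%, 39.1% and 23.7%). Npm1, nucleophosmin, had 55.0, 50.2 and 69.8 CPM in Unstimulated, 125, 168 and 129 in CD3, 203, 249.9 and 209 in CD3_CD28 and 129, 147 and 119 in CD3_CD28_ICOS. It rose by 1.26 in CD3 and by a further 0.65 in CD3_CD28 over CD3. Tpt1, the translationally controlled tumour protein, fell by 1.12 in CD3 against Unstimulated. In CD3_CD28 against CD3 4 of the 16 rose and 1 fell (18.7% and 45.7% of all rows), and in CD3_CD28_ICOS against CD3_CD28 0 rose and 7 fell (38.5% and 24.5%). These values are for gene rows, and copies of these genes were not joined.

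Among 14 genes of mTORC1 and the control of TOP mRNAs, 1 rose and 8 fell in CD3_CD28 against CD3, where 18.7% of all rows rose and 45.7% fell. Eif4ebp1, a repressor of cap-dependent translation that mTORC1 switches off, had 4.22, 4.08 and 5.47 CPM in Unstimulated, 36.9, 44.5 and 32.0 in CD3, 96.5, 111 and 94.8 in CD3_CD28 and 13.9, 34.6 and 15.8 in CD3_CD28_ICOS. It was the 1 that rose, by 1.40, and Eif4ebp2 fell by 0.76. Myc, which drives ribosome production, rose by 1.44 in CD3_CD28 against Unstimulated and fell by 1.33 in CD3_CD28_ICOS against CD3_CD28. Chaperones of single ribosomal proteins (11 tested) had 3 rises and 6 falls, and genes of ribosome recycling and quality control (12 tested) 2 rises and 6 falls, in CD3_CD28 against CD3, shares near the 18.7% and 45.7% of all rows.

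The authors' deposited table of their own comparisons, read at a false discovery rate under 0.05, is given for the 81 gene rows. In CD3_CD28 against CD3 the authors' deposited table called 17 higher and 0 lower (5.14% and 11.8% of all 17144 genes), with a median log2 ratio of 0.27 over the 67 rows tested here. In CD3_CD28_ICOS against CD3_CD28 the authors' deposited table called 0 higher and 13 lower (12.6% and 6.89%), and in CD3_CD28_ICOS against CD3 0 and 0 (4.07% and 4.6%). Against Unstimulated the authors' deposited table called 7 higher and 11 lower in CD3 (16.9% and 9.16%), 20 and 5 in CD3_CD28 (15.9% and 16.9%), and 9 and 10 in CD3_CD28_ICOS (12.4% and 5.73%).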

How the data were processed

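Values were the CPM values that the authors deposited for 17203 genes in 12 libraries, per the file headers normalized with an offset of 0.0001. Per the submitters' processing notes, Partek 10, DESeq2 and mm10 were used. Which aligner and annotation were used, and what was done with reads that match several places, is not given in the sources used here. A table of the authors' own comparisons, with log2 ratios and p-values that the authors deposited, was used only where it is named. All sample columns were mapped to the labels, and 0 were left unused.

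The members and gene lists were chosen with earlier results of these data known. From the CPM, genes that reached 10 CPM in 3 or more libraries were fitted on log2(CPM + 1) with limma 3.58.1 (R 4.3.3, trend and robust options), with 1 mean per group over all 12 libraries. Tests were two-sided, with p-values adjusted by Benjamini-Hochberg over all genes tested, and the fold changes understate changes of low genes. Families sum a coding gene's row with rows that match its coding sequence by BLAST. Values of low genes came out as whole reads (within 0.05) in 66.5 to 83.0% of cases, so no count test was run, and depth is an estimate. The fit was tested on simulated data. In each comparison the text names the called members with the largest rises and falls whose groups do not overlap, a set of members named always, and some singled out after their values were seen. Alternatives were other scalings, filters, pseudocounts, fits and left-out libraries. Some genes are counted in the totals and not reported here by name.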

Additional observations from a re-analysis of the deposited data

How the results depend on the processing

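Scaling and the joining of copy rows moved many counts. On gene rows, the median of ratios gave 8 rises and 28 falls in CD3 against Unstimulated, 7 falls in CD3_CD28 and 8 rises and 23 falls in CD3_CD28_ICOS against Unstimulated, 1 fall in CD3_CD28 against CD3, 50 falls in CD3_CD28_ICOS against CD3_CD28, and 1 fall in CD3_CD28_ICOS against CD3. Over all 9806 rows tested under it these counts were, in the same order, 3603, 3389, 3509, 3085, 3180, 2780, 3619 and 2611. Quantile normalization gave 28 and 23 falls in CD3 and CD3_CD28_ICOS against Unstimulated, 1 fall in CD3_CD28 against CD3, and 8 rises in CD3_CD28_ICOS against CD3. Over all 9826 rows these counts were 3684, 3406, 3191 and 2534. In families the median of ratios gave 8 rises and 44 falls in CD3 against Unstimulated, 0 falls in CD3_CD28 against CD3, 0 rises in CD3_CD28_ICOS against CD3_CD28 and 6 rises in CD3_CD28_ICOS against CD3. Over all 9660 rows and families these counts were 3589, 3325, 2782, 2764 and 2275. Quantile normalization gave 27 rises in CD3 against Unstimulated, 6 falls in CD3_CD28 against CD3, 3 rises in CD3_CD28_ICOS against CD3_CD28 and 5 falls in CD3_CD28_ICOS against CD3. Over all 9680 rows and families these counts were 3274, 3153, 3241 and 2504. The cause was not tested.

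Family sums in place of gene rows gave 29 and 28 falls in CD3 and CD3_CD28_ICOS against Unstimulated, 57 rises and 1 fall in CD3_CD28 against CD3, 46 falls in CD3_CD28_ICOS against CD3_CD28 and 1 fall in CD3_CD28_ICOS against CD3, and turned the Rpl12 difference to -0.20 in CD3_CD28 against Unstimulated and 0.012 in CD3_CD28_ICOS against CD3. With no filter, a filter of 1 CPM, or no trend, 2 rows rose in CD3_CD28_ICOS against CD3_CD28. With no filter, a filter of 1 CPM, scaling to reads outside ribosomal protein rows, or the 6 libraries alone, 1 row fell in CD3_CD28_ICOS against CD3, and with no trend 1 family rose. Without CD3_CD28 replicate 1 and Unstimulated replicate 3 together, 5 rows fell in CD3_CD28 against Unstimulated and 1 in CD3_CD28_ICOS against CD3. Under quantile normalization the family differences in CD3_CD28 against CD3 turned to -0.028 for Rpl10, -0.071 for Rpl12, -0.17 for Rpl3, -0.093 for Rpl5, -0.018 for Rps6 and -0.38 for Rpsa. Those in CD3_CD28_ICOS against CD3_CD28 turned to 0.20 for Rpl3, 0.057 for Rpl5, 0.0019 for Rps6 and 0.38 for Rpsa, and Rpl5 turned to 0.41 in CD3 and 0.37 in CD3_CD28_ICOS against Unstimulated.

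Leaving out each library in turn gave these ranges for rows, with those for families after them. Rises and falls were 11 to 17 and 15 to 18 rows, and 15 to 18 and 24 to 32 families, in CD3 against Unstimulated. They were 25 to 35 and 6 to 13 rows, and 32 to 41 and 11 to 18 families, in CD3_CD28 against Unstimulated. They were 10 to 15 and 12 to 17 rows, and 15 to 17 and 22 to 28 families, in CD3_CD28_ICOS against Unstimulated. They were 27 to 42 and 1 to 3 rows, and 45 to 61 and 1 to 2 families, in CD3_CD28 against CD3. They were 1 to 2 and 22 to 33 rows, and 1 to 2 and 34 to 57 families, in CD3_CD28_ICOS against CD3_CD28. They were 1 to 3 and 0 to 3 rows, and 1 to 3 and 0 to 2 families, in CD3_CD28_ICOS against CD3. The F test called 29 to 41 rows and 44 to 63 families.

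Some libraries with the same replicate number deviated together (CD3 and CD3_CD28_ICOS replicates 2 at 0.41 and replicates 3 at 0.34), but correlations ranged from -0.10 to 0.41 over 18 pairs, 6 of them over 0.1, in no 2 groups for all 3 numbers, so the numbers were not taken as pairs. With the replicate block, rises and falls among rows were 17 and 16, 32 and 12, 14 and 15, 36 and 2, 1 and 29, and 3 and 2 in the 6 comparisons in the order above, and among families 16 and 29, 35 and 16, 15 and 28, 57 and 1, 1 and 46, and 2 and 1. The F test then called 39 rows and 57 families.

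Rows that did not reach 10 CPM in 3 libraries, among them Rps27, Rps29 and Rpl24, were left out by the chosen filter, and depth, which limits their precision, was only estimated.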
